A study of Rattus norvegicus with 10 samples.

Results

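The genes described here encode the MHC class II molecules of the rat, the invariant chain that accompanies them and the regulator that switches them on. They were taken by symbol from the expression table, and all 9 listed genes were among its 9003 genes. They are the classical chains RT1-Ba, RT1-Bb, RT1-Da and RT1-Db1, the DM chains RT1-DMa and RT1-DMb, the DO beta chain RT1-DOb, the invariant chain Cd74 and the transactivator Ciita. RNA was measured in cells labelled M2 macrophages, which were isolated with an antibody against CD11b/c and then sorted by flow cytometry from the spleens of female rats of the strain WKY /Ncrj. The 2 control libraries came from rats in the physiological state, and the 2 GN libraries from rats with glomerulonephritis, raised by an antibody against the glomerular basement membrane, that received no cells. Rats with the same nephritis that were given human adipose-derived mesenchymal stem cells (ASCs) gave the other 6 libraries. The ASCs had been stained with DiD, a membrane dye, and macrophages that carried the dye gave the 3 EV+ libraries, while macrophages without it gave the 3 EV- libraries. Dye in a macrophage was read as transfer of extracellular vesicles (EVs), so EV+ and EV- macrophages both came from ASC-treated animals and differed in the dye. The donors were of another species, and the cells of each library are a bulk sample, in which fewer cells of a type and less RNA per cell cannot be told apart.

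MHC class II molecules show peptides from engulfed material to CD4+ T cells. Each is a pair of an alpha and a beta chain, with RT1-B the rat counterpart of mouse I-A and human DQ, and RT1-D that of mouse I-E and human DR. The invariant chain, Cd74, holds the new pair in shape, blocks its groove and guides it to the endosome, where proteases cut Cd74 down to a short fragment. RT1-DM is a related pair that is not shown to T cells: it releases that fragment and lets a peptide bind, and RT1-DO restrains RT1-DM, mainly in B cells. Ciita does not bind DNA itself but assembles on a set of factors at the promoters of these genes, and its own level is known to set much of theirs. Macrophages raise the classical and DM chains, Cd74 and Ciita in response to interferon gamma.

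Promoter elements of class II genes are shown because the factors that recruit Ciita sit on them. RefSeq promoter windows (build GRCr8, 250 bases before to 50 bases after the start) were found for 7 of the 9 members, and not for RT1-DMb and Ciita. The search read the 250 bases before the start on both strands for the letters TNGCNAC, as found in the X box, followed after 10 to 30 bases by GATTGG, the inverted CCAAT letters of the Y box. These patterns were chosen after the promoters had been read. In the lines below, written from 5' to 3' on the strand of the gene, capitals mark the letters that were searched for.

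RT1-Ba (chr20:4576967-4577030, + strand): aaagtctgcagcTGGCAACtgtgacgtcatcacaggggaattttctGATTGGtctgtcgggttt

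RT1-Da (chr20:4515319-4515382, + strand): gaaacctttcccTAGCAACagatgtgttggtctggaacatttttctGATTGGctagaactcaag

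RT1-Db1 (chr20:4560226-4560288, - strand): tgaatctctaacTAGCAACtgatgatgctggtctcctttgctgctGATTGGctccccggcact

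RT1-DMa (chr20:4712383-4712446, - strand): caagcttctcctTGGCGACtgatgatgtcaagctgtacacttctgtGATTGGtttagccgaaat

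RT1-DOb (chr20:4627590-4627650, - strand): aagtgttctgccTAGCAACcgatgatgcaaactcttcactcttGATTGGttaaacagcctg

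RT1-Bb (chr20:4604163-4604224, - strand): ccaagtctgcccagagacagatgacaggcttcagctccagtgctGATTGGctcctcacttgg

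Cd74 (chr18:56527122-56527184, + strand): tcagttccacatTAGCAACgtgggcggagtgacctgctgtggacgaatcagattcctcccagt

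The pair of patterns stood in 5 of the 7 windows, with 24 to 27 bases between them, and in 80 of all 33469 promoters of the table (0.239%). RT1-Bb held GATTGG, which 13.3% of all promoters hold, without TNGCNAC before it. Cd74 held TNGCNAC, which 24.8% of all promoters hold, without GATTGG after it. The pair was present at RT1-DMa and RT1-DOb as well as at classical chains, so it did not separate the members by how their levels varied. These letters describe the windows and do not show that a factor was bound.

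Values are reads scaled to library size (CPM) and then by TMM, which matches the bulk of genes between libraries. They do not account for gene length, so levels are compared between groups and not between genes. The libraries held 19270515 to 26617093 reads on the genes of the table. Every value was a whole number of reads, so the reads behind each gene are known: the classical chains had 481 to 8060 reads per library, Cd74 10261 to 30477, and the rarest member, Ciita, 11 to 264. Differences are log2 differences on the scale log2(CPM + 1), tested with limma in 1 fit of the 10 libraries, and a gene is called changed where its p adjusted by Benjamini-Hochberg over the 9003 genes was under 0.1. The scale understates changes of low genes such as Ciita. The same GN libraries stand in all comparisons with GN, and the same EV libraries in several, so the comparisons are not independent of each other. The median log2 difference of all genes lay between -0.01 and 0.01 in each comparison. The class II chains are highly polymorphic and similar to each other, and the reads were aligned to rn6, which comes from another strain, so reads that could not be placed on 1 chain may be missing. A second DR beta gene next to RT1-Db1, RT1-Db2, was not in the table.

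The macrophage label was checked against markers. Lyz2 stood at 15325 to 20176 CPM and Csf1r at 5800 to 8155 CPM over the libraries, with Adgre1 at 1025 to 1491 CPM. Mrc1, which encodes the mannose receptor CD206, and Cd163, both used as markers of M2 macrophages, stood at 0 to 1.81 CPM in each library, so these transcripts were near the lowest levels of the table in cells labelled M2. The summed level of 15 macrophage markers of 18 listed was 25550 to 25853 CPM in control, 30563 to 31349 in GN, 30086 to 31798 in EV+ and 29569 to 30977 in EV- libraries. It was therefore lower in control than in the other groups. Most of the sum was Lyz2 and Csf1r, while C1qa, C1qb, C1qc and Spic stood at 1.75 to 11.2 CPM over the libraries. Within the list the complement genes C1qa, C1qb and C1qc were highest in GN, and C1qb was at 3.84 to 4.82 CPM in control, 8.66 to 11.2 in GN, 3.98 to 6.48 in EV+ and 2.06 to 5.20 in EV- libraries, although limma called none of the 3 in any comparison. Other markers of the list varied, with the highest mean in GN for Lyz2, in EV+ for Csf1r and Adgre1 and in control for Hmox1. The part of these markers in the results was not tested.

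**Figure D1:**
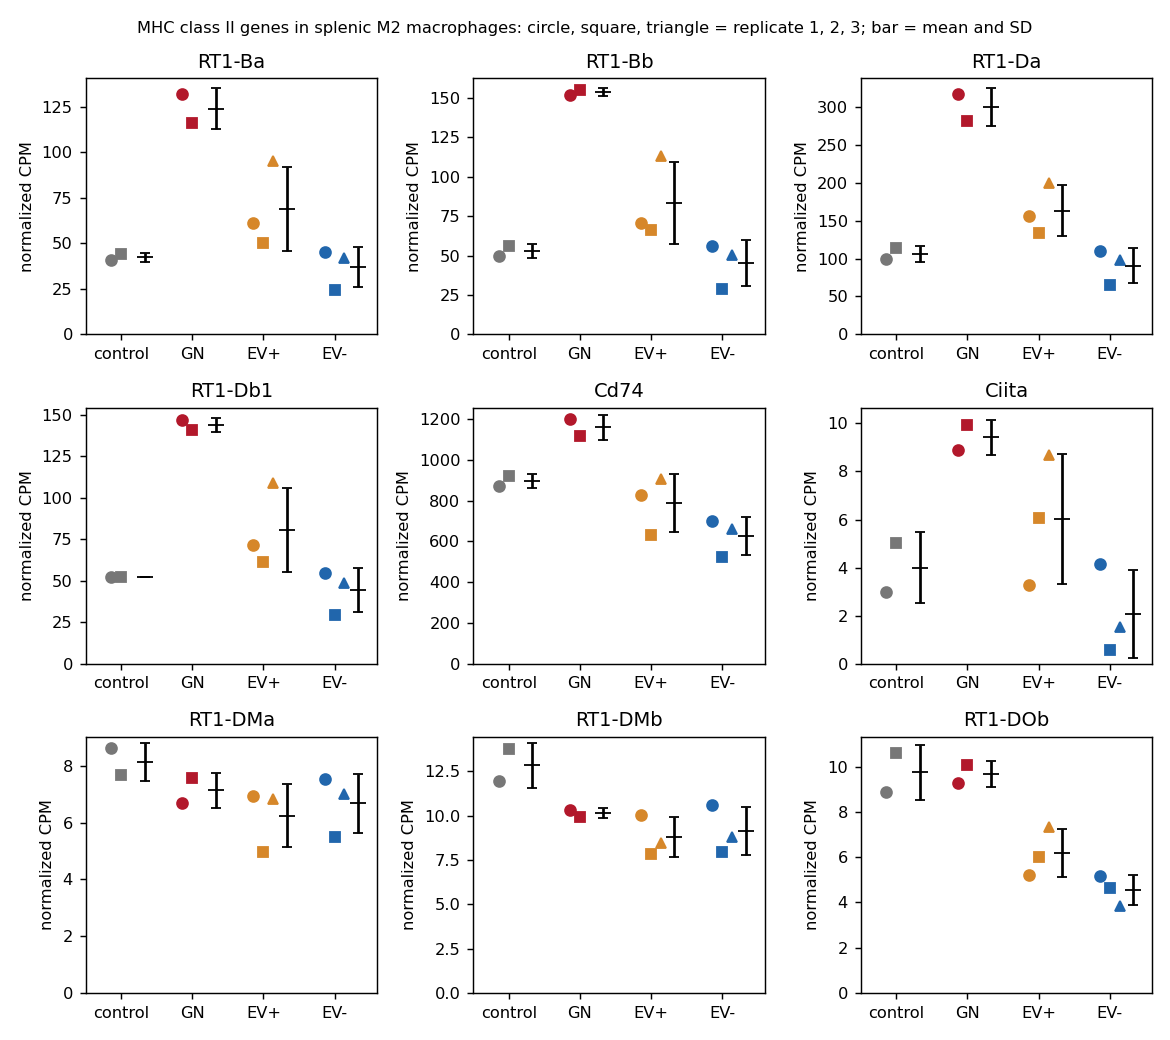
TMM-normalized CPM of the 9 genes (vertical axes, each from 0) in each library of control, GN, EV+ and EV- macrophages (horizontal axis), with circle, square and triangle for replicates 1, 2 and 3 and a bar for the group mean and SD. All 4 classical chains were highest in the 2 GN libraries and stood higher in each EV+ than in each EV- library, while RT1-DMa and RT1-DMb did not separate EV+ from EV-.

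Over the 4 groups together, 6 of the 9 genes changed (limma's F test, adjusted p under 0.1), against 2.57% of all genes: the 4 classical chains, Cd74 and RT1-DOb. Without the intensity trend in limma's variances 2 members were called.

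The classical chains rose together in nephritis. RT1-Da, the alpha chain of the DR-like molecule, was at 98.9 and 114 CPM in control, at 318 and 282 CPM in GN, at 156, 133 and 199.9 CPM in EV+ and at 110.1, 64.6 and 97.9 CPM in EV- libraries. RT1-Db1, its beta partner, was at 52.4 and 52.0 CPM in control, 147 and 141 CPM in GN, 71.5, 61.4 and 109 CPM in EV+ and 54.8, 29.4 and 48.9 CPM in EV- libraries. GN libraries of both genes were the highest of the 10, EV+ libraries came next without overlap with any other group, and EV- libraries lay around or under the control level. The DQ-like pair gave the same order of groups. RT1-Ba, its alpha chain, was at 40.6 and 44.01 CPM in control, 132 and 116 CPM in GN, 61.0, 50.3 and 94.9 CPM in EV+ and 45.0, 24.5 and 41.8 CPM in EV- libraries. RT1-Bb, its beta chain, was at 49.7 and 55.9 CPM in control, 152 and 155 CPM in GN, 70.6, 66.1 and 113 CPM in EV+ and 56.1, 28.8 and 50.4 CPM in EV- libraries. In each of the 4 genes the third EV+ library was the highest and the second EV- library the lowest of its group.

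In GN against control, which asks what nephritis alone does, the 4 classical chains rose by 1.45 to 1.53 on the log2 scale, and these were 4 of the 9 members, against 0.933% of all genes called higher. RT1-Da rose by 1.49 (SE 0.21, adjusted p = 0.00373, limma), from 106 ± 10.6 to 300.2 ± 25.1 CPM (mean ± SD, n = 2 each), a fold of 2.81. RT1-Ba rose by 1.53 (adjusted p = 0.0132), RT1-Bb by 1.52 (adjusted p = 0.0126) and RT1-Db1 by 1.45 (adjusted p = 0.0135). No member was called lower, where 0.822% of all genes were. With 2 libraries a group the calls leaned on each GN library: RT1-Da alone stayed past the threshold when either was left out (adjusted p = 0.0689 and 0.0344), and the same held for limma without the intensity trend (adjusted p = 0.0803).

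In EV- against GN, which compares dye-free macrophages of ASC-treated nephritic rats with those of untreated nephritic rats, the classical chains fell back. Their log2 differences ran from -1.80 to -1.73, and 6 of the 9 genes were called lower, against 0.322% of all genes. RT1-Da fell to 90.9 ± 23.6 CPM (n = 3), a log2 difference of -1.75 (SE 0.19, adjusted p = 0.000832, limma). RT1-Ba had a log2 difference of -1.76 (adjusted p = 0.00617), RT1-Bb of -1.80 and RT1-Db1 of -1.73 (adjusted p = 0.00493 for both). Without GN replicate 1, or without the intensity trend, RT1-Da remained as the single call (adjusted p = 0.0367 and 0.0716). NK and T cell markers stood higher in EV- macrophages. Of 25 listed, 22 were in the table, and their median log2 difference was 1.45 in EV- against GN, against 0.000606 over all genes. limma and edgeR called none of them, 17 had an unadjusted p under 0.05 (7.85% of all genes did), DESeq2 called 14 (1.26% of all genes) and the fit with the replicate block called 2. Against control limma called 2, Prf1 and Cd8a, both higher in EV-, and edgeR called 8. Cd8a was not particular to EV-, with a log2 difference from control of 0.59 in EV- and 0.57 in EV+ (adjusted p = 0.0181 and 0.0164, limma). Cd8b was also called higher in EV+ against control (log2 difference 0.32, adjusted p = 0.0927, limma). All 3 EV- libraries stood above every other library for Prf1, which encodes perforin, at 24.5 to 335 CPM in EV- and 7.004 to 18.4 elsewhere, and for Ccl5, at 9.07 to 126 CPM in EV- and 2.72 to 5.78 elsewhere. The highest was EV- replicate 1, whose summed level was 1290 CPM, against 456 and 465 CPM in the other EV- libraries and 295 to 445 CPM in the other groups. Cd8a, at 199 to 333 CPM, made up much of the smaller sums. Without EV- replicate 1, 7 members were called lower, with a log2 difference of -1.90 for RT1-Da (adjusted p = 0.00200). The part of NK and T cells in the other libraries was not tested.

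Against control, EV- macrophages had classical chains at -0.28 to -0.23 on the log2 scale, none of them called, with unadjusted p from 0.201 to 0.370. For RT1-Da the 95% interval of this difference ran from -0.67 to 0.15, and for RT1-Ba from -0.76 to 0.30, so a fall or a small rise cannot be told apart at this number of libraries. The members called lower against control were Cd74 and RT1-DOb, 2 of 9, against 1.56% of all genes.

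EV+ macrophages lay between. Against GN, the classical chains were at 163 ± 33.8 CPM for RT1-Da, 80.7 ± 25.2 for RT1-Db1, 68.8 ± 23.3 for RT1-Ba and 83.3 ± 25.9 for RT1-Bb (n = 3), and their log2 differences ran from -0.92 to -0.87. In limma none of the 9 members was called in this comparison (0.122% of all genes were), while 6 had an unadjusted p under 0.05, as 7.13% of all genes did. edgeR on the recovered reads called none (0.1% of all genes) and DESeq2 called 1 (0.455% of all genes). Of RT1-Da the log2 difference was -0.89 with a 95% interval from -1.30 to -0.48 (adjusted p = 0.187). All 3 EV+ libraries were below both GN libraries in 7 of the 9 genes, the exceptions being the DM chains, and 11.8% of all genes had their EV+ libraries below GN in this way. Without EV- replicate 2, which enters this comparison only through the shared spread, 2 members were called. Against control no member was called either (3.63% of all genes were), 6 had an unadjusted p under 0.05 (15% of all genes), and edgeR and DESeq2 called none (3.34% and 6% of all genes). The classical chains were 0.57 to 0.64 above control on the log2 scale, with adjusted p from 0.147 for RT1-Da to 0.266 for RT1-Db1 (limma).

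The direct comparison of EV+ with EV- macrophages asks what the dye-positive cells express beyond their dye-free neighbours. The classical chains were 1.81-fold to 1.84-fold higher in EV+ macrophages, at log2 differences of 0.85 to 0.88. None of the 9 members passed the threshold in limma, where 2 genes of the whole table did (0.0222%). Of the members, 6 had an unadjusted p under 0.05, against 4.57% of all genes. edgeR called none (0.0222% of all genes) and DESeq2 called RT1-Da (0.378% of all genes, adjusted p = 0.0886). The 95% interval of the difference of RT1-Da ran from 0.48 to 1.22 on the log2 scale (SE 0.17, adjusted p = 0.247, limma). The EV+ libraries stood above all EV- libraries in 5 of the 9 genes, the 4 classical chains and RT1-DOb, and 4.25% of all genes were higher in EV+ in that way.

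Same-numbered EV+ and EV- libraries deviated together from the means of their groups, and with the number as a block in the fit 1 member was called, RT1-Da (adjusted p = 0.0730, limma), against 0.0555% of all genes. RT1-Ba and RT1-Db1 reached an adjusted p of 0.118 and RT1-Bb of 0.180 in that fit. In a blocked fit of the 6 EV libraries alone, added after the data were seen, 5 members were called, the classical chains and Cd74, against 0.544% of all genes, with RT1-Da at an adjusted p of 0.00401. By same-numbered libraries, RT1-Da was 1.42, 2.07 and 2.04 times higher in EV+ than in EV-, and RT1-Bb 1.26, 2.30 and 2.24 times. RT1-Ba was 1.35, 2.05 and 2.27 times higher and RT1-Db1 1.30, 2.09 and 2.23 times. NK and T cell markers differed in this comparison too, with a median log2 difference of -1.39 over the 22 genes. Of these, 16 had an unadjusted p under 0.05 (4.57% of all genes). limma and edgeR called none of these markers and DESeq2 called 9 (0.378% of all genes), and their part in the class II difference was not tested. The smallest ratio of each classical chain belonged to replicate 1, whose EV- library was the highest in these markers. Without that EV- library the log2 difference of RT1-Da was 1.01 (adjusted p = 0.266, limma).

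**Figure D2:**
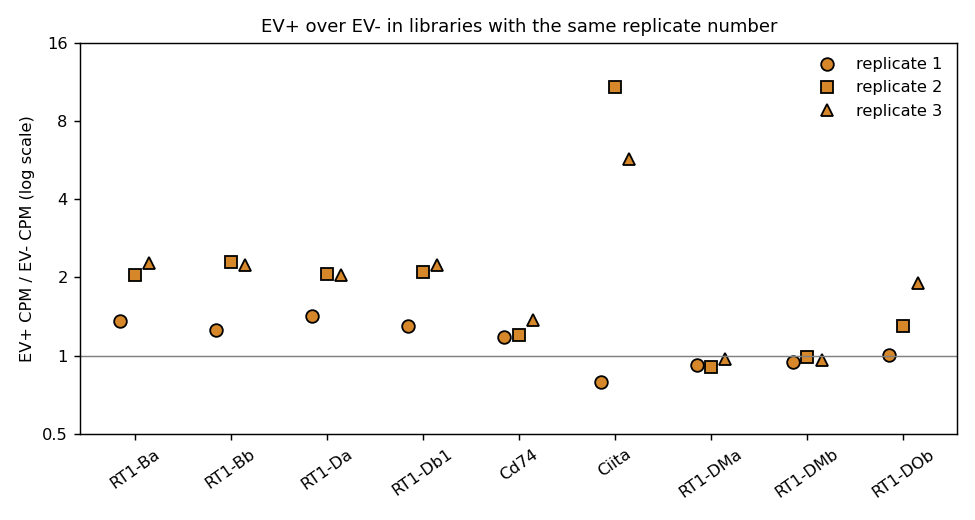
Ratio of EV+ to EV- CPM (vertical axis, log scale) for the 9 genes (horizontal axis), with circle, square and triangle for the same-numbered libraries 1, 2 and 3 and a line at equality. The classical chains lay above 1 in all 3 pairs, from 1.26 to 2.30, and both DM chains below 1 in all 3, from 0.902 to 0.985.

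The chains moved as a set within libraries too. RT1-Ba over RT1-Bb kept between 0.748 and 0.868 over the 10 libraries, RT1-Da over RT1-Db1 between 1.83 and 2.20, and RT1-Da over RT1-Ba between 2.11 and 2.65, while the levels themselves spanned 24.5 to 132 CPM for RT1-Ba. The ratios between chains thus varied far less than the level that the chains shared.

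Cd74, the invariant chain, shared the highest mean in GN and the lowest in EV- with the classical chains, over a smaller range. It was at 869.6 and 921 CPM in control, at 1202 and 1115 CPM in GN, at 827, 629 and 905 CPM in EV+ and at 701, 523 and 659 CPM in EV- libraries. The GN libraries were again the highest, but EV+ and EV- libraries overlapped, and each EV- library was below both controls. In GN against control the log2 difference was 0.37 (SE 0.15, adjusted p = 0.386, limma), which did not pass, although it did with these 2 groups fitted alone (adjusted p = 0.0539). In EV- against GN it fell by 0.89 (SE 0.14, adjusted p = 0.0130), to 628 ± 93.1 CPM from 1159 ± 61.6 CPM, and against control it fell by 0.52 (SE 0.14, adjusted p = 0.0840). The call against GN was lost without the intensity trend (adjusted p = 0.180) and without GN replicate 1 or 2 (adjusted p = 0.257 and 0.109). The call against control was lost in edgeR (adjusted p = 0.104), in limma without the intensity trend (adjusted p = 0.265), and when either control, either GN library or EV- replicate 2 or 3 was left out (adjusted p from 0.119 to 0.416). Of EV+ against EV- the log2 difference was 0.32, with a 95% interval from 0.06 to 0.59, and the same-numbered ratios were 1.18, 1.20 and 1.37. Against control EV+ differed by -0.20 (95% interval -0.50 to 0.10, adjusted p = 0.538, limma), where the classical chains lay 0.57 to 0.64 above control. The mean of EV+ thus lay below control in Cd74 and above it in the classical chains.

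The ratio of Cd74 to the summed classical chains therefore changed between groups. It was 3.53 ± 0.0953 in control, 1.60 ± 0.00131 in GN, 2.02 ± 0.275 in EV+ and 2.98 ± 0.498 in EV- libraries (mean ± SD). The EV- libraries, at 2.63 to 3.55, all lay above every GN and EV+ library, and they overlapped the controls, at 3.46 and 3.599.

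The chains that edit and restrain peptide loading did not follow this order. RT1-DMa was at 8.63 and 7.67 CPM in control, 6.71 and 7.57 CPM in GN, 6.95, 4.97 and 6.83 CPM in EV+ and 7.53, 5.50 and 7.004 CPM in EV- libraries. RT1-DMb was at 11.9 and 13.7 CPM in control, 10.3 and 9.94 CPM in GN, 10.04, 7.83 and 8.48 CPM in EV+ and 10.6, 7.95 and 8.79 CPM in EV- libraries. Control libraries were the highest of both DM chains, and the other 3 groups overlapped. In limma no comparison called either chain, though RT1-DMb had an unadjusted p of 0.0125 in EV+ and 0.0208 in EV- against control, at log2 differences of -0.50 and -0.46 (adjusted p = 0.184 and 0.274), and edgeR and DESeq2 called neither chain. In GN against control the log2 difference of RT1-DMa was -0.17 (95% interval -0.64 to 0.30, adjusted p = 0.859, limma) and that of RT1-DMb -0.31 (-0.72 to 0.10, adjusted p = 0.642). Neither interval reached the rise of 1.45 to 1.53 seen in the classical chains. The DM chains rested on 108 to 333 reads per library, fewer than the classical chains.

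In EV- against GN the DM chains differed by -0.09 (95% interval -0.52 to 0.34) and -0.15 (-0.52 to 0.23) on the log2 scale, for RT1-DMa and RT1-DMb. In EV+ against EV- they differed by -0.09 (-0.47 to 0.30) and -0.05 (-0.38 to 0.29). These intervals hold differences of either sign, and they stop short of the -1.75 and 0.85 measured for RT1-Da in the same comparisons.

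RT1-DOb, the beta chain of the DO molecule, had a pattern of its own. It was at 8.90 and 10.6 CPM in control, at 9.27 and 10.1 CPM in GN, at 5.20, 6.02 and 7.32 CPM in EV+ and at 5.15, 4.64 and 3.85 CPM in EV- libraries. Control and GN libraries overlapped, every EV library was below every control and GN library, and EV+ lay just above EV-. Its log2 difference was -0.01 in GN against control (95% interval -0.47 to 0.45). In EV- it fell by 0.96 against control (SE 0.20, adjusted p = 0.0243, limma) and by 0.95 against GN (SE 0.20, adjusted p = 0.0796). The call against control was lost without control replicate 2 (adjusted p = 0.247). The call against GN was also lost without the intensity trend, with the 2 groups alone, with the block, and without either control, either GN library, EV+ replicate 3 or EV- replicate 2 or 3 (adjusted p from 0.103 to 0.527). In EV+ the log2 difference was -0.59 against control (adjusted p = 0.165) and -0.58 against GN (adjusted p = 0.536), which did not pass. The alpha chain of DO, RT1-DOa, is no member and was near the limit of detection, with 0 to 46 reads per library and 0 reads in EV- replicate 2, where 3 reads would be 0.153 CPM.

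Since DO is known mainly from B cells, B cell markers are given beside it. The summed level of 12 B cell markers of 20 listed was 439 to 512 CPM in control, 368 to 442 in GN, 429 to 510 in EV+ and 391 to 483 in EV- libraries, with no group apart from all others. Single markers did separate groups. Cd72 was at 14.0 to 16.5 CPM in EV- libraries and at least 19.7 CPM in every other library, and like RT1-DOb it fell in EV- against control (log2 difference -1.15, adjusted p = 0.00123, limma). Bank1 went the other way in that comparison (log2 difference 0.73, adjusted p = 0.0544, limma). It also rose in EV+ against control (log2 difference 0.85, adjusted p = 0.0180, limma). Cd79b fell in GN against control (log2 difference -0.85, adjusted p = 0.0331). Most of that sum was Cd22, at 275 to 389 CPM, while Ms4a1, which encodes a B cell surface antigen, stood at 1.52 to 1.72 CPM in EV+ and at 0.153 to 0.778 CPM in the other libraries, and Cd79a and Pax5 were not in the table. The isolation by CD11b/c and the macrophage gate preceded these libraries, and the part of B cells in the level of RT1-DOb was not tested.

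**Figure D3:**
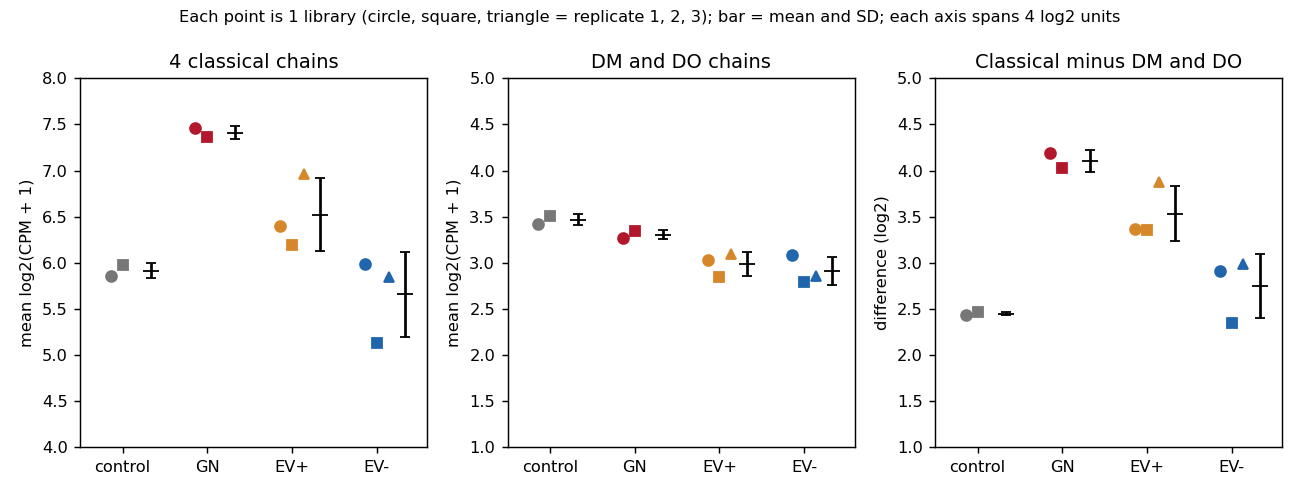
Mean log2(CPM + 1) of the 4 classical chains (left), of RT1-DMa, RT1-DMb and RT1-DOb (middle) and the difference of these means (right), per library (points; circle, square and triangle for replicates 1, 2 and 3) and as mean and SD (bars) for control, GN, EV+ and EV-; all axes span the same number of log2 units. The classical mean is highest in GN at 7.36 to 7.46. The DM and DO mean runs from 2.79 to 3.51 over the 10 libraries, with every EV+ and EV- library below every control and GN library.

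Classical and DM or DO chains can be set against each other within a library, as the mean log2 level of the 4 classical chains minus that of RT1-DMa, RT1-DMb and RT1-DOb. This difference was 2.43 and 2.46 in control and 4.19 and 4.02 in GN libraries. It was 3.37, 3.35 and 3.87 in EV+ and 2.91, 2.35 and 2.99 in EV- libraries. All EV+ libraries lay above all EV- and control libraries and below both GN libraries, while EV- libraries lay on both sides of the controls. The group means were 2.45 ± 0.02 in control, 4.11 ± 0.12 in GN, 3.53 ± 0.30 in EV+ and 2.75 ± 0.35 in EV- libraries (mean ± SD). GN exceeded control by 1.66, and EV+ exceeded EV- by 0.79, where the pooled SD within groups was 0.27. Lower DM and DO chains were part of the differences of the EV groups from control. In EV+ the classical mean was 0.60 above control and the DM and DO mean differed by -0.48. In EV- the classical mean differed from control by -0.26 and the DM and DO mean by -0.56. These are descriptions with no test, because the genes were chosen with results of these data known.

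Ciita, the transactivator, was at 2.97 and 5.03 CPM in control, at 8.91 and 9.94 CPM in GN, at 3.28, 6.06 and 8.70 CPM in EV+ and at 4.13, 0.561 and 1.52 CPM in EV- libraries. Its GN libraries were the highest of the 10, and its lowest library, EV- replicate 2, was also the lowest of all 4 classical chains. Its groups had a wide spread, with 6.01 ± 2.71 CPM in EV+ and 2.07 ± 1.85 CPM in EV- (n = 3), and in the first pair the EV- library was above the EV+ library. The log2 difference was 1.09 in GN against control (SE 0.46, adjusted p = 0.411, limma), -1.94 in EV- against GN (SE 0.42, adjusted p = 0.110) and 1.29 in EV+ against EV- (SE 0.38, adjusted p = 0.841), none of which passed. In EV- against GN it passed without EV- replicate 1 (log2 difference -2.39, adjusted p = 0.0141), without EV+ replicate 1 (adjusted p = 0.0619) and in DESeq2 (log2 difference -2.19, adjusted p = 0.0191). Between GN and control it passed when these 2 groups were fitted alone (adjusted p = 0.0985).

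Across the 10 libraries the level of Ciita ran with the mean of the standardized classical chains, with a Pearson r of 0.889 and a Spearman rho of 0.903, and with an r of 0.863 when the 2 GN libraries, the farthest from the median, were left out. Cd74 had an r of 0.853 and a rho of 0.709, and 0.668 without the GN libraries. RT1-DOb had an r of 0.562, and RT1-DMa and RT1-DMb had 0.172 and 0.061. With the group means taken out, RT1-DMa reached an r of 0.734 and RT1-DMb of 0.515, so within groups the DM chains varied with the classical chains more than they did between groups. These correlations describe 10 libraries in 4 groups that share their scaling, and no p is given.

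**Figure D4:**
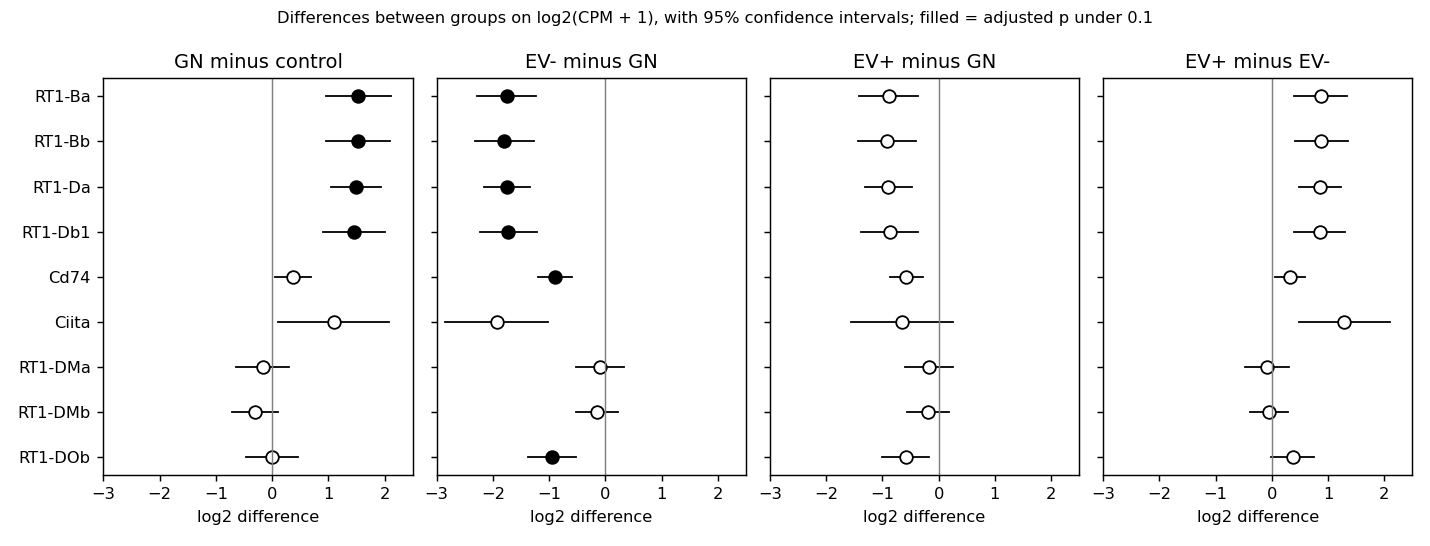
Log2 differences on log2(CPM + 1) (horizontal axes) of the 9 genes (vertical axis) in 4 comparisons, with 95% confidence intervals (lines) and filled points where the adjusted p of limma was under 0.1. The classical chains lay at 1.45 to 1.53 in GN minus control and at -1.80 to -1.73 in EV- minus GN, and the intervals of RT1-DMa and RT1-DMb crossed 0 in all 4 panels.

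Genes that bind at class II promoters or act upstream of Ciita were counted from a list of 31, of which 29 were in the table. They include Rfx5, Rfxap and Rfxank, the RFX factors of the X box, Nfya, Nfyb and Nfyc, the NF-Y factors of the Y box, and receptors and signal carriers of interferon gamma. None was called by limma or edgeR in GN against control, in either EV group against GN, or in EV+ against EV-, and DESeq2 called none in these either. At an unadjusted p under 0.05 there were 4 in GN against control, 4 in EV+ against GN, 2 in EV- against GN and 0 in EV+ against EV- of the 29. Over all genes those shares were 10.4%, 7.13%, 7.85% and 4.57%. Between GN and control edgeR called 1.63% and DESeq2 3.27% of all genes, and in EV- against GN edgeR called 0.4%. Their median log2 difference was -0.11 in GN against control and 0.01 in EV+ against EV-. Rfx5 was at 26.7 ± 2.53 CPM in control, 19.6 ± 5.90 in GN, 27.0 ± 1.97 in EV+ and 23.9 ± 2.89 in EV- libraries, so its mean was lowest where the classical chains were highest. Its GN libraries, at 15.5 and 23.8 CPM, overlapped the EV- libraries, at 21.1 to 26.9 CPM.

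Genes that process antigen and invariant chain for class II loading were 15 in the table of 19 listed. In GN against control 1 rose and 1 fell. Ifi30, a thiol reductase that unfolds antigens in the endosome, rose from 80.5 ± 6.14 to 185 ± 13.2 CPM (log2 difference 1.19, SE 0.13, adjusted p = 0.000537, limma). Lgmn, an asparagine-specific protease of the same compartment, fell from 409 ± 41.3 to 308 ± 10.2 CPM (log2 difference -0.40, adjusted p = 0.0480). In the EV groups Ifi30 was at 173 ± 21.2 CPM in EV+ and 151 ± 19.9 CPM in EV-, above both controls in every library, where the classical chains of EV- macrophages were around the control level. None of the 15 was called in EV+ against EV-, EV+ against GN or EV- against GN by limma or edgeR, with 2, 2 and 4 at an unadjusted p under 0.05 (4.57%, 7.13% and 7.85% of all genes). DESeq2 called 0, 1 and 0 of the 15, and 0.378%, 0.455% and 1.26% of all genes.

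Of the co-stimulatory molecules that are shown to T cells beside class II, 9 of 11 listed were in the table. Cd83, a surface protein of mature antigen-presenting cells that is known to keep class II at the surface, fell in EV- against GN (log2 difference -1.15, SE 0.13, adjusted p = 0.000832, limma). It was at 137 ± 35.4 CPM in control, 114 ± 2.40 in GN, 75.7 ± 6.83 in EV+ and 50.8 ± 1.22 in EV- libraries. Thus Cd83 shared with the classical chains the order of GN, EV+ and EV- means, but not the rise over control. Its difference of EV+ from EV- was 0.56 on the log2 scale and did not pass (adjusted p = 0.247). No other gene of this list was called by limma or edgeR in EV- against GN, where 3 had an unadjusted p under 0.05 and DESeq2 also called Cd274 lower (log2 difference -0.41, adjusted p = 0.0955). In EV+ against EV- and in EV+ against GN limma and edgeR called none, with 1 at an unadjusted p under 0.05 and 1 called by DESeq2 in each. In GN against control limma, edgeR and DESeq2 called none, with 2 at an unadjusted p under 0.05. Over all genes the shares at that unadjusted p were 7.85%, 4.57%, 7.13% and 10.4%, in the order in which these comparisons are given. DESeq2 called 1.26%, 0.378%, 0.455% and 3.27% of all genes in the same order.

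Dendritic cells carry much class II, so their markers are given beside the classical chains. The sum of 10 dendritic cell markers of 18 listed was 36.3 to 41.6 CPM in control, 50.2 to 53.4 in GN, 39.3 to 45.8 in EV+ and 40.4 to 51.8 in EV- libraries. Most of it was Zbtb46, at 22.6 to 31.9 CPM, while Flt3 stood at 0.156 to 3.50 CPM, Clec9a at 0 to 1.17 and Clec10a at 0 to 1.54 CPM, and Xcr1 was not in the table. The sum was higher in GN than in control, as the classical chains were, and EV+ and EV- libraries overlapped in it. In GN against control, EV+ against GN, EV- against GN and EV+ against EV- limma and edgeR called none of the 10. At an unadjusted p under 0.05 there were 3, 1, 2 and 3 in that order (10.4%, 7.13%, 7.85% and 4.57% of all genes). DESeq2 called 1, 0, 0 and 0 (3.27%, 0.455%, 1.26% and 0.378% of all genes). The sums of 6 plasma cell markers of 7 listed (16.1 to 26.2 CPM) and of 8 neutrophil markers of 14 listed (549.8 to 745 CPM) did not follow the order of the classical chains. Most of the neutrophil sum was Csf3r, at 528 to 723 CPM. The part of any of these cells in the results was not tested.

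Outside the members, the 5 genes whose pattern over the 10 libraries was most like the mean of the standardized classical chains were Acp2 (Pearson r 0.906), Clta (0.905), Thap4 (0.893), Plvap (0.888) and Hsd11b1 (0.879), among 7169 genes with a mean of at least 5 CPM. Plvap, an endothelial and macrophage surface protein, had the widest change of these, at 94.8 ± 18.2 CPM in control, 173 ± 14.0 in GN, 131 ± 13.5 in EV+ and 75.3 ± 9.06 in EV- libraries. It was also the most alike by Spearman's rho, at 0.952, and the single gene of the 5 that was among the first 5 by rho. Acp2, an acid phosphatase of the lysosome, was at 101 ± 0.0434, 129 ± 0.737, 114 ± 2.53 and 103 ± 1.17 CPM in the same order of groups. Among the 5 genes that ran most opposite were Rap1gds1 (-0.945), Add3 (-0.903), Pank2 (-0.871) and Wdr33 (-0.864). None of these genes was chosen for a function. Their changes between groups were chosen with the pattern, so no test of them is given here.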

How the data were processed

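The authors aligned paired-end reads with STAR (version 2.5.3) to rn6, counted them on RefSeq genes with HTSeq (version 0.6.0), removed genes under 1 CPM in all samples and applied TMM scaling in edgeR. The deposited table holds the resulting normalized signal, CPM after TMM, and the authors' statistics were not used. All values (100%) were whole multiples, within 0.01 reads, of the worth of 1 read in their library. Of its symbols, 18 read as dates, and these genes were not named. Cells were isolated by CD11b/c before sorting, and whether class II was stained in the M2 gate is not given in the sources used here.

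The main test was limma (version 3.58.1, R 4.3.3) with intensity trend on log2(value + 1) of 10 libraries in 4 groups (6 residual degrees of freedom), called at a Benjamini-Hochberg FDR under 0.1 over 9003 genes. Groups came from the labels. The labels do not say which libraries share an animal, so p-values measure the spread between these samples. Alternatives were a pseudocount of 0.1, a filter of 1 CPM in 3 libraries, no intensity trend, RLE size factors, edgeR (4.0.16) and DESeq2 (1.42.0) on recovered reads, an FDR of 0.05, a replicate block, a fit restricted to the pair of groups in question, and leaving out each library. A blocked fit of the EV libraries was chosen after seeing the data. The procedure was tested on simulated data. Residuals of same-numbered EV+ and EV- libraries correlated (0.241, 0.335 and 0.136 over 8429 genes). Those of different numbers lay at -0.266 to -0.0105, but subtracting group means forces negative values beside positive ones, so they add no evidence. The numbers were taken to pair these libraries from the data alone, through the same-numbered values. Control and GN (0.0878 for replicate 1) and EV and GN libraries (0.0159 to 0.0561) did not reach 0.1 and were not taken as paired.

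The members and gene lists were chosen with earlier results of these data known. Named genes are the 9 members, list genes called in EV+ against EV-, either EV group against GN or GN against control (at most 6 a list), and the 5 genes most like and 5 most opposite to the classical chains. Rfx5, the genes given as defining markers and RT1-DOa were named besides. Some genes that these rules name are not reported here. Promoters came from RefSeq (GRCr8). A floor of 3 reads allows for counting error only, because no molecular identifiers were used. Pandas (2.3.3), numpy (2.4.6) and matplotlib (3.10.9) were used with Python (3.11.15).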

Additional observations from a re-analysis of the deposited data

How the results depend on the processing

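Of the 441 member differences recomputed under an alternative with no library left out, 413 kept their direction and their side of the threshold, 12 lost and 16 gained a call, and none changed sign. With a library left out the same held for 500 of 540, while 26 lost and 6 gained a call and 8 changed sign. Where this left 1 library in a group, that library was assumed to vary like the others. Members called in EV- against GN fell from 6 to 1 without the intensity trend (34 to 6 over all genes) and ranged from 1 to 7 with a library left out, with RT1-Da among 7 genes in all without GN replicate 1. In GN against control they fell from 4 to 1 without the trend (158 to 60 over all genes), ranged from 1 to 4 (34 and 41 genes without a GN library) and were 6 with the 2 groups alone (191 genes), which adds Cd74 and Ciita. In EV- against control they fell from 2 to 1 without the trend, in edgeR and at an FDR of 0.05 (256 to 94, 234 and 143 over all genes), and ranged from 0 to 2. Over the 4 groups they fell from 6 to 2 without the trend (231 to 93 over all genes). In EV+ against EV- they rose from 0 to 1 in DESeq2 (2 to 34 over all genes). In EV+ against GN they rose from 0 to 1 in DESeq2 (11 to 41 over all genes) and ranged from 0 to 2, and in EV+ against control they ranged from 0 to 1. The cause was not tested, beyond the fewer libraries.

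With the replicate block, members called in EV+ against EV- rose from 0 to 1, and to 5 in the EV libraries alone (5 and 49 over all genes). In EV+ against GN, whose libraries were not shown to be paired, the block gave 5 calls among 30 over all genes, from 0 among 11 (RT1-Da at -1.01, adjusted p = 0.0332, limma), and in EV- against GN RT1-DOb was lost (adjusted p = 0.111). The classical minus DM and DO difference of EV- from GN moved from -1.36 to -1.64 with DM chains alone, which leaves out the falling RT1-DOb.

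Differences that changed sign with a library left out were close to 0 and uncalled. In EV+ against EV- RT1-DMa ranged from -0.20 to 0.048 and RT1-DMb from -0.14 to 0.057. In EV- against GN RT1-DMa ranged from -0.17 to 0.024, and in GN against control RT1-DOb from -0.12 to 0.11. In EV- against control RT1-Ba ranged from -0.39 to 0.038 and RT1-Bb from -0.46 to 0.012, above 0 without EV- replicate 2. Depth limits Ciita most, with 11 reads in its lowest library.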

Other observations

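Genes that lie among the class II genes in the RefSeq order but serve class I presentation were looked at as values. Between RT1-DOb and RT1-DMb stand Tap2, Psmb8, Tap1 and Psmb9, the peptide transporter and immunoproteasome subunits that feed class I molecules and that interferon gamma also raises. Tap1 was at a mean of 537 CPM in control, 509 in GN, 482 in EV+ and 476 in EV- libraries, and its log2 difference in GN against control was -0.08 (adjusted p = 0.849, limma). Psmb8 was at 661, 696, 715 and 721 CPM and Psmb9 at 511, 476, 469 and 468 CPM in the same order of groups, with log2 differences of 0.08 and -0.10 in GN against control (adjusted p = 0.838 and 0.812). Tap2 was at 9.41, 8.48, 7.33 and 8.72 CPM (adjusted p = 0.877 in the same comparison). Over the 6 pairs of groups and the 4 genes the adjusted p of limma ran from 0.419 to 0.9997, whereas the classical chains on one side of them were called in GN against control and in EV- against GN.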
